A study of Mus musculus with 4 samples.

Results

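The immediate early transcription factors Fos, Fosb, Fosl2, Jun, Junb, Jund, Atf3, Egr1, Ier2 and Klf6 were followed in mouse liver on expression arrays. These 10 genes were taken by symbol, as every probe set to which the platform annotation gives one of these names alone, and they were read by 17 of the 45101 probe sets. The brightest probe set by mean log2 signal over the 4 arrays stood for its gene. RNA came from whole liver slices of 9-month-old males without any intervention, kept on chow in a specific-pathogen-free facility. AB6F1 (n = 2) had an AJ mother and a B6 father, and B6AF1 (n = 2) the reverse. The reciprocal hybrids share their autosomal alleles, and the RefSeq table of GRCm38.p6 places all 10 genes on autosomes. The hybrids differ in the strain of the mother, and in the strain that supplied the X chromosome, the Y chromosome and the mitochondria. They also differ in which strain's allele of an imprinted gene is maternal. The title of the series names nonalcoholic fatty liver disease, and the comparison its labels allow is AB6F1 against B6AF1. Every difference below is AB6F1 minus B6AF1.

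AP-1 is a family of dimers of basic leucine zipper proteins, in which a Jun protein pairs with a Fos protein, with another Jun protein or with a factor of the ATF group. Transcription of Fos, Jun, Atf3 and Egr1 starts soon after growth factors, cytokines, injury or other stress reach a cell, through MAP kinases and factors already bound at the promoter, and needs no new protein. In liver this early response is known from regeneration after partial hepatectomy, from the acute-phase response and from ischaemia.

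The 5 genes whose arrays did not overlap between the crosses are Fos, Jun, Junb, Atf3 and Egr1. Promoter sequences of Fos, Jun, Junb and Atf3 are shown because these are the genes of that set held in the promoter table used. Of the 10 genes, 8 were matched in the RefSeq promoter windows of GRCm38.p6; Egr1 and Ier2 were not in that table. Each sequence is the 250 bases before the annotated start, 5′ to 3′ on the strand of the gene. Fos lies at chr12:85473640-85473889 on the plus strand, Jun at chr4:95052223-95052472 on the minus strand, Junb at chr8:84978749-84978998 on the minus strand and Atf3 at chr1:191183334-191183583 on the minus strand. Capitals mark matches to the patterns searched.
Fos: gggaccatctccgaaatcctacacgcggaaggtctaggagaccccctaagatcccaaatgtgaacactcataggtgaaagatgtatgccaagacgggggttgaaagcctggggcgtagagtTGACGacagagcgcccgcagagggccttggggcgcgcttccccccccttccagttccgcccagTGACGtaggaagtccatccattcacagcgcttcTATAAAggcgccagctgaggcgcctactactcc
Jun: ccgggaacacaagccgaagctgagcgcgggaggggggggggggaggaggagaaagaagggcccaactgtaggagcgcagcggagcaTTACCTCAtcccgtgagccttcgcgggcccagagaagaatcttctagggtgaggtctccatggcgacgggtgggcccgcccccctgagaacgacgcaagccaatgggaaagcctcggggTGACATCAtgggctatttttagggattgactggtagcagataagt
Junb: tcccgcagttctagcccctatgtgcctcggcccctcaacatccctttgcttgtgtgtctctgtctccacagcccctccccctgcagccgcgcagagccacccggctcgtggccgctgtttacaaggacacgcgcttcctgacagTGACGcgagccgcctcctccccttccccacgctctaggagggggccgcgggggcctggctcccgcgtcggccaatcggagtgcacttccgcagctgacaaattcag
Atf3: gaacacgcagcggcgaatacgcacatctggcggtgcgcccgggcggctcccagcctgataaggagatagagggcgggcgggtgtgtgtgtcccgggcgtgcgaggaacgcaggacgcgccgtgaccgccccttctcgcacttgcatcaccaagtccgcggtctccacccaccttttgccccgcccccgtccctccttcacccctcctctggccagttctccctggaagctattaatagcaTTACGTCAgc

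Patterns were searched on both strands of these windows. The Fos window held the CRE half-site TGACG, the core of cAMP response elements, at 129 and at 66 bases before the start, and a TATAAA box at 33 bases before it. The Jun window held the octamer TNACNTCA, which covers variant sites bound by Jun and ATF dimers, at 164 and 45 bases before the start. The Atf3 window held that octamer at 10 bases before the start, overlapping a CRE half-site, and the Junb window held a CRE half-site at 106 bases before it. Over the 8 matched genes, TGACG was found in 4 windows, against 17.8% of all 32851 windows, and TNACNTCA in 4, against 14% of all windows. The EGR pattern GCGNGGGCG was found in 2 windows, those of Fosb and Fosl2, against 4.7% of all. The AP-1 heptamer TGANTCA (6.75% of all windows), the full CRE TGACGTCA (1.55%), which contains both TGACG and the octamer, and the CArG box (1.47%) matched none of the 8 windows. A match is a description of letters, and no binding was measured. Bases outside these windows were not searched, so the absence of a pattern holds for the windows only.

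All 10 brightest probe sets, and all 17 probe sets, had a higher mean log2 signal in AB6F1, but none passed the test over all genes. Of the 10 genes, 9 were bright enough to be tested, under a filter that kept the brighter part of the array, from a geometric mean signal of 60.9 (the median probe set) upwards; Fosb was dimmer. Limma with Benjamini-Hochberg adjustment over 11748 genes called 0 of the 9 at 0.05. In the background it called 25 genes, or 0.213%, with 16, or 0.136%, higher in AB6F1. At an unadjusted limma p under 0.05, 5 of the 9 were higher, where 5.84% of all genes were. For 5 of the 9, both AB6F1 arrays were above both B6AF1 arrays, against 22.5% of all genes. The median log2 difference of the 9 was 1.09, against 0.02 over all genes tested. The genes were chosen with earlier results of these data known, so the shares beside those of all genes do not measure enrichment. With all 22516 probe sets above the filter tested separately, limma called 0 of the 15 member probe sets tested and 0.160% of all. With 2 mice a cross, the smallest two-sided p an exact permutation test can give is 0.333, so every call rests on the variance that limma shares across genes. Leaving out one array moved the count of 25 to 79 without AB6F1 replicate 1, 241 without AB6F1 replicate 2, and 1 without either B6AF1 replicate.

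**Figure D1:**
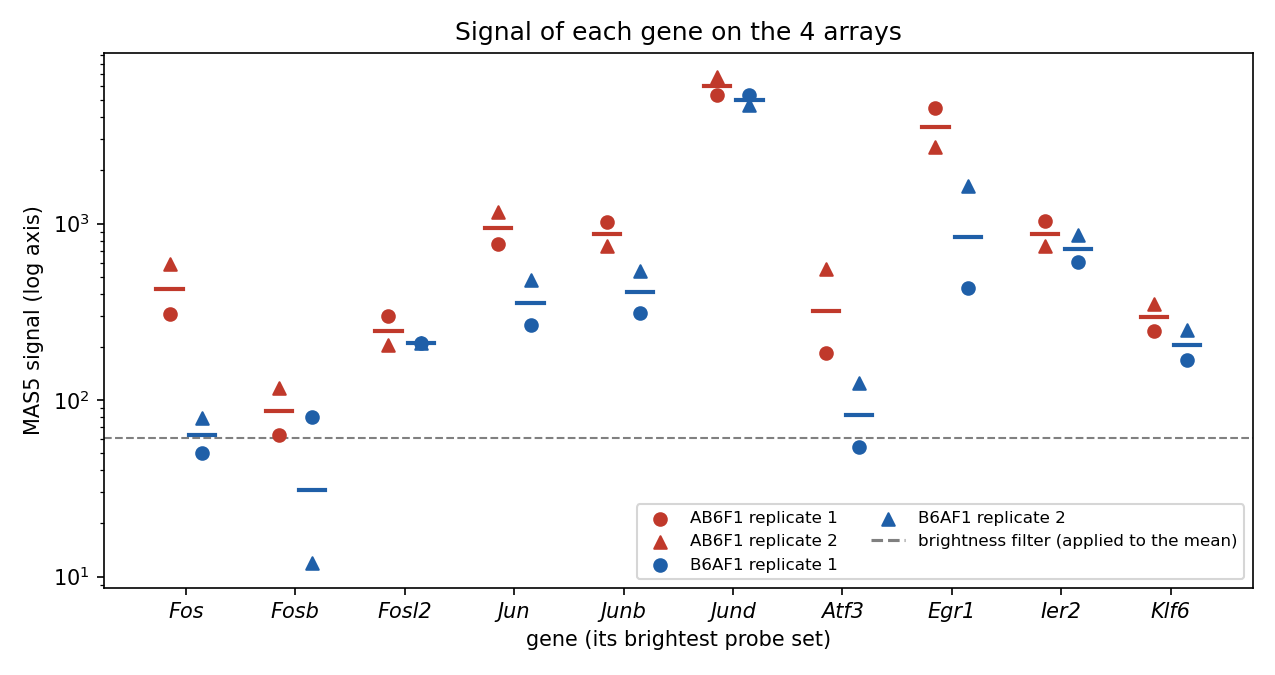
MAS5 signal on a log axis for the brightest probe set of each of the 10 genes on the 4 arrays, with circles for replicate 1, triangles for replicate 2 and a bar at the geometric mean of each cross. Both AB6F1 points lie above both B6AF1 points for Fos, Jun, Junb, Atf3 and Egr1, and the crosses overlap for the other 5 genes; the dashed line is the filter signal of 60.9.

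Fos, the founding member of the Fos proteins, which bind DNA only as a dimer with a Jun protein, had the widest separation. The AB6F1 mice gave signals of 307.8 and 589.1, and the B6AF1 mice 49.9 and 79.7. Both AB6F1 arrays were several times brighter than both B6AF1 arrays, and one B6AF1 array lay below the filter signal. The means were 448 ± 199 (SD, n = 2) and 64.8 ± 21.1 (SD, n = 2). The log2 difference was 2.76 ± 0.42 (SE; 95% interval 1.76 to 3.75), or 6.75-fold, with a limma adjusted p of 0.0846. Of the genes tested, 14 had a larger positive difference. Fos passed in 3 of its 15 alternatives: after median centring of each array (limma adjusted p = 0.0411), without AB6F1 replicate 1 (0.0266) and with the replicate number as a block (0.0088). Over all its alternatives the adjusted p ran up to 0.453, and the log2 difference from 2.29 to 3.22.

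The other Fos genes gave less clear readings. Fosb, which encodes another partner of Jun, was dim, with signals of 63.8 and 116.5 in AB6F1 and 80.2 and 11.9 in B6AF1. The crosses overlapped, since B6AF1 replicate 1 was above AB6F1 replicate 1, and the plain log2 difference of 1.48 became 0.10 without B6AF1 replicate 2. Fosl2, which encodes Fra-2, was read differently by its probe sets. The brighter one gave 297.7 and 206.1 in AB6F1 and 211.1 and 210.0 in B6AF1, so that a single AB6F1 array stood above the rest. This made 0.23 ± 0.27 on the log2 scale (SE; limma adjusted p = 0.811). Without AB6F1 replicate 1 it was -0.031. The dimmer one gave 182.6 and 167.1 against 78.6 and 57.4, with no overlap, and a log2 difference of 1.38 ± 0.39 (SE) when tested on its own (limma adjusted p = 0.376). The Fosl2 readings disagree, and the data do not say which of them follows the transcript.

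Jun, the main partner in AP-1 and itself a target of AP-1, was higher in AB6F1 on both its probe sets. The brighter gave 770.6 and 1163.4 in AB6F1 and 266.3 and 478.5 in B6AF1. The lower AB6F1 array was above the higher B6AF1 array. Its means were 967 ± 278 and 372 ± 150 (SD, n = 2 each), and the log2 difference was 1.41 ± 0.32 (SE; 95% interval 0.65 to 2.16; 2.65-fold; limma adjusted p = 0.246). The other probe set gave 709.2 and 552.4 against 158.3 and 240.8, a log2 difference of 1.68 ± 0.27 (SE) with a limma adjusted p of 0.103 when tested on its own. The probe sets differ in which AB6F1 mouse was higher.

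Junb, a Jun protein that often tempers the activity of c-Jun, had signals of 1024.4 and 743.1 in AB6F1 and 310.8 and 540.6 in B6AF1. The arrays did not overlap, and the log2 difference was 1.09 ± 0.29 (SE; 95% interval 0.40 to 1.78; 2.13-fold; limma adjusted p = 0.334). Leaving out B6AF1 replicate 1 gave 0.69, and leaving out B6AF1 replicate 2 gave 1.49. Jund, the Jun gene that resting cells express steadily, was bright on all arrays, at 5328.2 and 6743.7 in AB6F1 and 5345.4 and 4682.3 in B6AF1. One array of each cross stood at nearly the same level. Its log2 difference was 0.26 ± 0.15 (SE; 95% interval -0.10 to 0.62; limma adjusted p = 0.629), and its dim second probe set gave 0.34 ± 0.51 (SE).

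**Figure D2:**
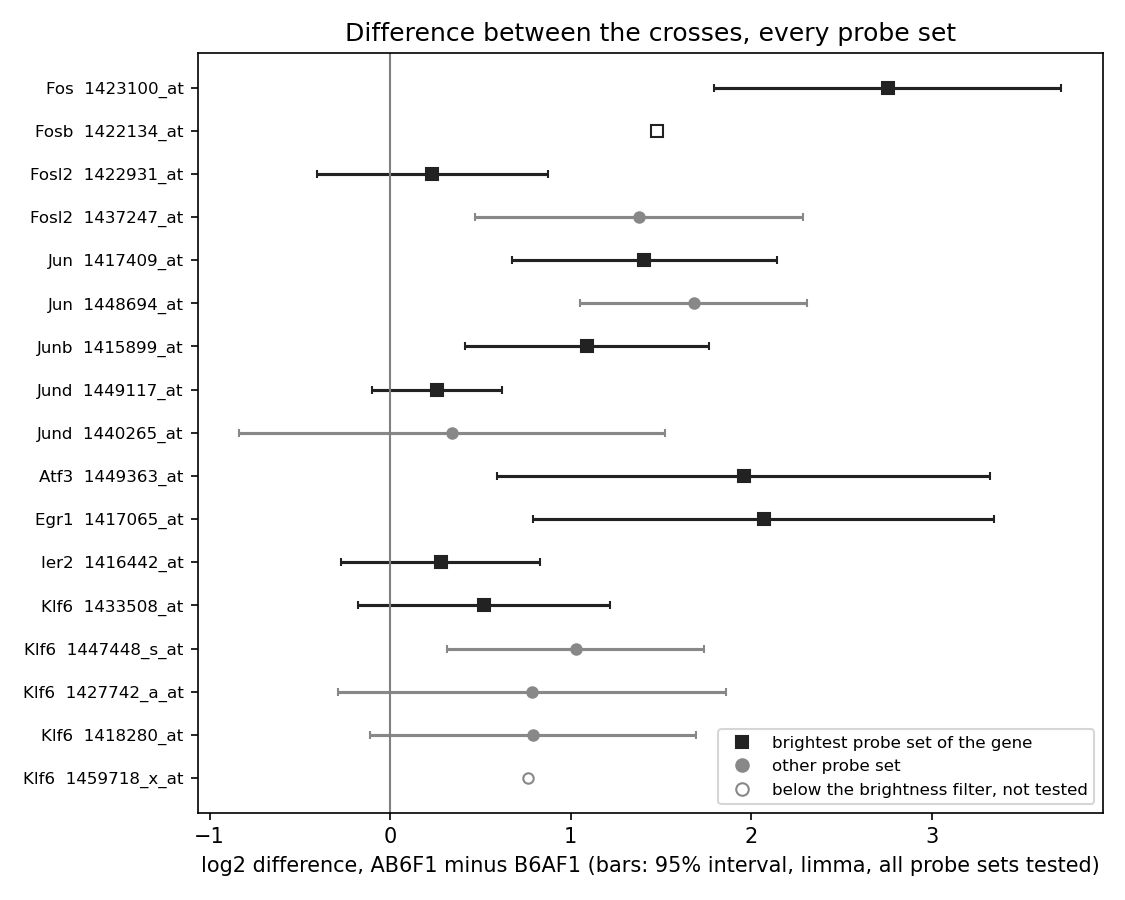
Log2 difference (AB6F1 minus B6AF1, x axis) of all 17 probe sets, with squares for the brightest probe set of each gene, circles for the others and 95% intervals from the limma fit in which every probe set was a row of its own. All 17 points lie to the right of 0; open symbols mark the 2 probe sets below the filter, which were not tested.

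Atf3, a stress-induced basic leucine zipper factor that pairs with Jun proteins, varied widely between mice of a cross. Signals of 185.3 and 551.3 in the AB6F1 mice stood against 54.4 and 124.3 in the B6AF1 mice. The arrays did not overlap, B6AF1 replicate 1 was below the filter signal, and the AB6F1 mice differed from each other by 2.98-fold and the B6AF1 mice by 2.28-fold. The log2 difference was 1.96 ± 0.60 (SE; 95% interval 0.54 to 3.38; 3.89-fold; limma adjusted p = 0.384). It ran from 1.17 without AB6F1 replicate 2 to 2.75 without AB6F1 replicate 1.

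Egr1, a zinc finger factor induced through serum response factor and its ETS partners, was at 4547 and 2715.7 in AB6F1 and at 431.3 and 1624.4 in B6AF1. B6AF1 replicate 1 was far below the other mice, and the B6AF1 mice differed by 3.77-fold between themselves. The means were 3631 ± 1295 and 1028 ± 844 (SD, n = 2 each), and the log2 difference was 2.07 ± 0.56 (SE; 95% interval 0.74 to 3.40; 4.20-fold; limma adjusted p = 0.338). Without B6AF1 replicate 1 it was 1.11, and without B6AF1 replicate 2 it was 3.03.

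Ier2, a small nuclear protein of the early response, and Klf6, a Krüppel-like factor induced in liver injury, were closer between the crosses. Ier2 signals of 1034.1 and 742.8 in the AB6F1 mice and of 605.3 and 860.2 in the B6AF1 mice interleaved. Its log2 difference was 0.28 ± 0.24 (SE; 95% interval -0.28 to 0.84; limma adjusted p = 0.741). The brightest Klf6 probe set gave 247.0 and 349.5 against 169.2 and 248.2, where the lower AB6F1 and the higher B6AF1 array were nearly equal. Its log2 difference was 0.52 ± 0.30 (SE; 95% interval -0.19 to 1.23; limma adjusted p = 0.627). Of the other 4 Klf6 probe sets, 3 had arrays that did not overlap. The one of suffix _s_at was at 1.03 ± 0.30 (SE, log2), the one of suffix _a_at at 0.79 ± 0.46 with AB6F1 signals of 143.6 and 390.7, and that of plain suffix _at at 0.79 ± 0.39. The last, of suffix _x_at, lay below the filter at 12.7 to 38.0.

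The factors that separated the crosses did not all peak in the same mouse. The highest array was an AB6F1 array for all 10 genes, namely AB6F1 replicate 2 for 6 of them and AB6F1 replicate 1 for 4; over all genes tested an AB6F1 array was the highest for 55.5%. B6AF1 replicate 1 was the lowest array for 7 of the 10 genes, against 23.7% of all genes tested. The mean deviation of the 9 tested genes from their own means, on the log2 scale, was 0.49 and 0.68 for the AB6F1 mice but -0.94 and -0.24 for the B6AF1 mice. The median log2 difference of the 9 became 0.69 when B6AF1 replicate 1 was left out and 1.49 when B6AF1 replicate 2 was. Leaving out AB6F1 replicate 1 gave 0.86, and leaving out AB6F1 replicate 2 gave 1.11. Of the 9, at least 8 were higher in AB6F1 whichever array was left out, and the exception was Fosl2.

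**Figure D3:**
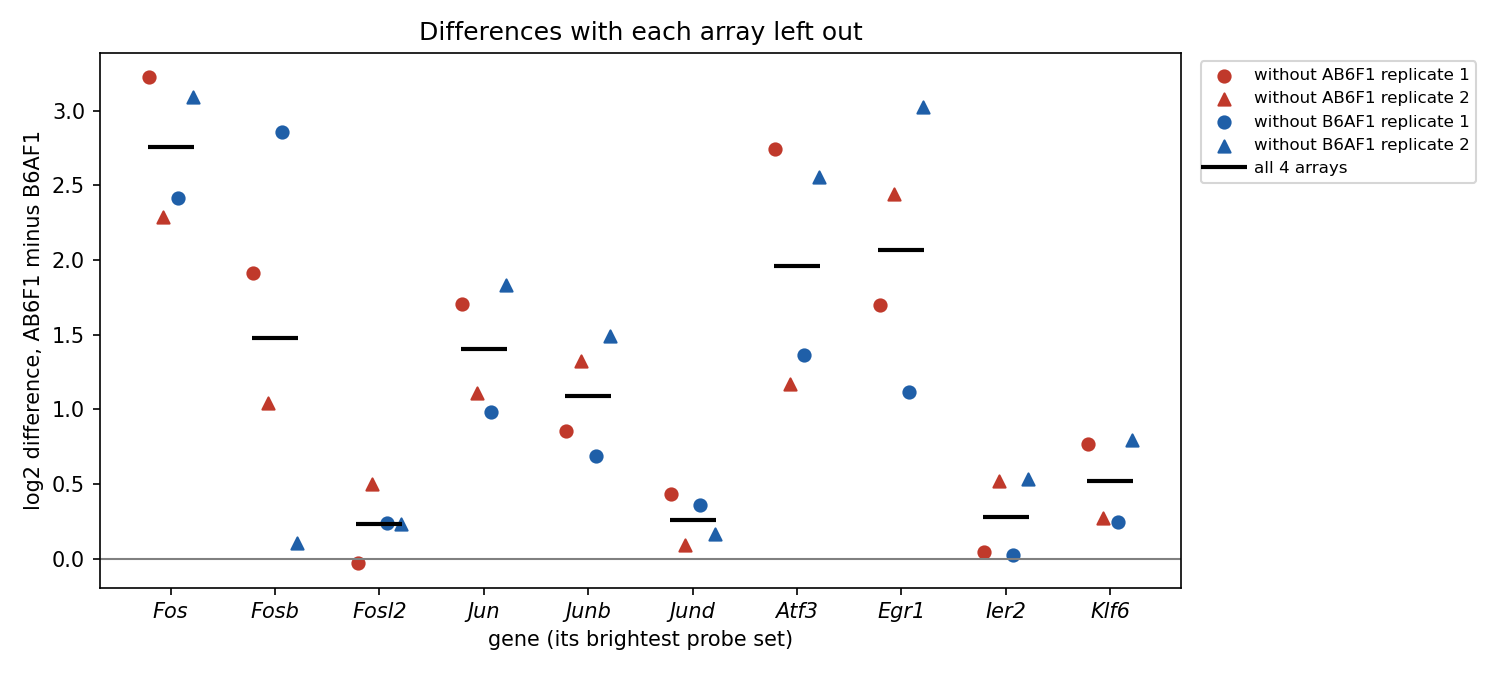
Log2 difference (AB6F1 minus B6AF1, y axis) of the brightest probe set of each gene over all 4 arrays (black bar) and with each array left out in turn (points). Fos stays between 2.29 and 3.22, Egr1 spreads from 1.11 to 3.03, and Fosl2 reaches -0.031 without AB6F1 replicate 1.

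Scaling bore little on these directions. After quantile normalization, median centring, cyclic loess or addition of 16 to every signal, all 9 tested genes were higher in AB6F1, with a median log2 difference from 0.95 to 1.06. Median centring moved the median of all genes tested to -0.11. With it, both AB6F1 arrays were above both B6AF1 arrays for 5 of the 9, as in the reported fit. The same share of all genes fell from 22.5% to 12.4%. Under quantile normalization and cyclic loess this count was 6 of the 9, against 19.3% and 20.1% of all genes.

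**Figure D4:**
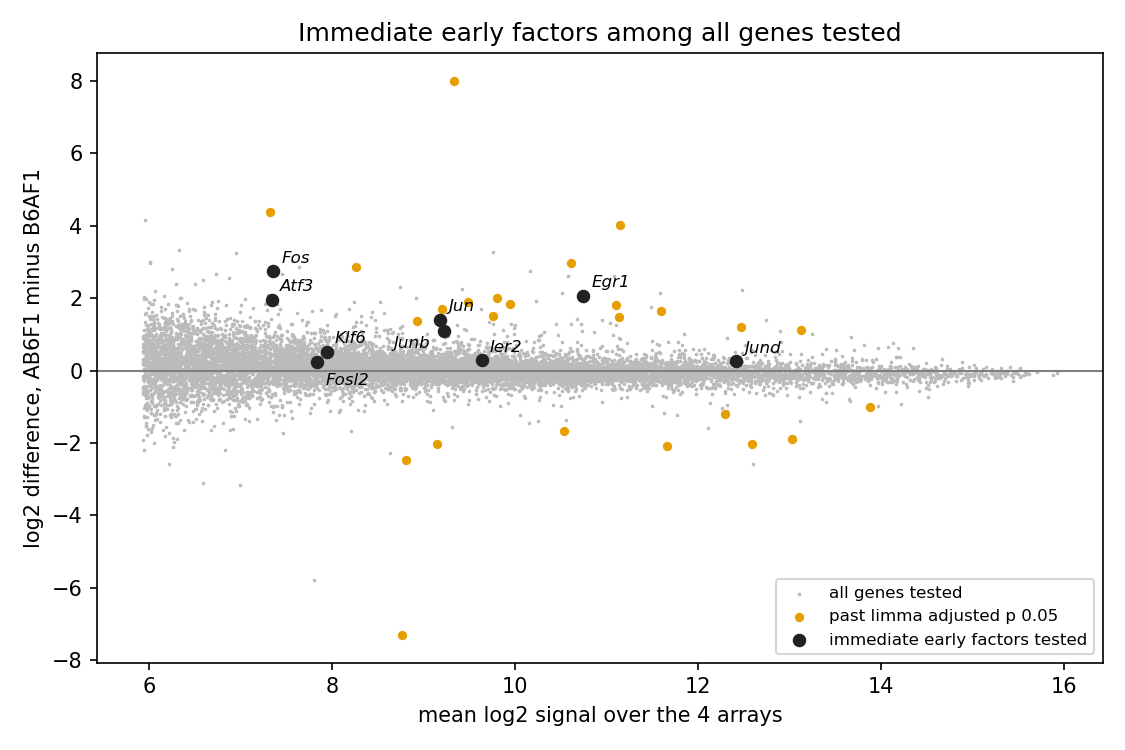
Log2 difference (AB6F1 minus B6AF1, y axis) against mean log2 signal over the 4 arrays (x axis) for all 11748 genes tested, with the 25 past a limma adjusted p of 0.05 in orange and the 9 immediate early factors tested in black. Fos, Atf3 and Egr1 lie near the upper edge of the cloud at their brightness, and Fosl2, Ier2, Jund and Klf6 lie within it.

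Genes around these factors in the pathway were described by list. The lists, too, were chosen with earlier results of these data known, so their shares beside those of all genes are descriptions only. Of 12 other AP-1 subunits and partners, 8 were tested, 4 of them higher and 4 lower, with a median log2 difference of 0.09 and 0 called by limma (0 at an unadjusted p under 0.05). Mafk, a small Maf protein, was at 0.61 ± 0.27 and Batf3, a partner of Jun in immune cells, at 0.77 ± 0.40 (log2, SE; limma adjusted p = 0.529 and 0.599). Of 23 genes of the MAP kinase cascade, 15 were tested, 6 higher and 9 lower, with a median of -0.13 and 0 called (5 at an unadjusted p under 0.05). Map2k2, a kinase that activates ERK, was at -0.32 ± 0.12, and Map3k1, a kinase upstream of JNK, at 0.60 ± 0.23 (log2, SE; limma adjusted p = 0.463 and 0.470); with all probe sets of each gene averaged, Map2k2 was at -0.043 and Map3k1 at -0.59. Of 14 factors that drive the early genes or regulate their proteins, 11 were tested, 3 higher and 8 lower, with a median of -0.08 and 0 called (0 at an unadjusted p under 0.05). Fbxw7, the ubiquitin ligase subunit that targets c-Jun, was at -0.43 ± 0.19, and Creb1, which binds cAMP response elements, at -0.25 ± 0.18 (log2, SE; limma adjusted p = 0.526 and 0.696); Creb1 was at 0.040 when all its probe sets were averaged.

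Of 34 other early response genes listed, 29 were tested, 22 higher and 7 lower, with a median log2 difference of 0.41; over all genes tested 53.5% were higher. The arrays did not overlap for 17 that were higher, against 22.5% of all genes, and for 3 that were lower. One passed limma: Socs3, the feedback inhibitor of cytokine receptors, rose 3.24-fold, from 296.2 and 358.7 in B6AF1 to 962.2 and 1161 in AB6F1 (limma adjusted p = 0.0262). Its call rests on a probe set of suffix _x_at, whose probes may cross-hybridise, and was lost once _x_at and _s_at probe sets were left out (log2 difference 1.04 against 1.70; limma adjusted p = 0.42), on the mean of its probe sets (1.40; 0.184) and without B6AF1 replicate 1 (0.33) or B6AF1 replicate 2 (0.26). Btg2, an antiproliferative early gene, had signals of 763.4 and 1216.1 in AB6F1 and 201.5 and 289.7 in B6AF1, which is 3.99-fold (limma adjusted p = 0.0637). Tiparp and Rhob were at 0.63 ± 0.18 and 0.63 ± 0.19 (log2, SE). At an unadjusted p under 0.05, 9 of these genes were higher, against 5.84% of all genes, and 1 was lower. The lower one was the nuclear receptor Nr4a3, named after its values were seen, at -1.65 ± 0.55 with signals of 37.8 and 42.8 in AB6F1 and 171 and 92.9 in B6AF1. Both its AB6F1 signals were below the filter signal of 60.9, which it passed only through its B6AF1 arrays. Ier3, counted among the 9 higher, passed only through its AB6F1 arrays, with signals of 51.3 and 35 in B6AF1. So did Klf4, among the 22 higher and the 17 without overlap. Its B6AF1 signals were 42.6 and 78.7, with a geometric mean below the filter. The direction of Nr4a3, Ier3 and Klf4 is partly fixed by the filter.

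Genes described as targets of AP-1 or EGR1 had a median of 0.67 over 13 tested of 20 listed, 10 higher and 3 lower. Limma called 0 of them. At an unadjusted limma p under 0.05 there were 5, all higher, where 5.84% of all genes were higher. Vimentin (Vim) was at 1.17 ± 0.23, cyclin D1 (Ccnd1) at 0.72 ± 0.15 and the adhesion molecule Icam1 at 0.95 ± 0.24 (log2, SE), and the hyaluronan receptor Cd44 was 2.83-fold higher (limma adjusted p of these 4 from 0.180 to 0.299). Several of these are also expressed by cells other than hepatocytes. Heat shock genes, another stress response, had a median of 0.13 over 9 tested, 6 higher and 3 lower, with 0 called (2 at an unadjusted p under 0.05). Hspa8, the constitutive HSP70, was at 0.64 ± 0.19, and Hspb1, a small heat shock protein, at -0.44 ± 0.18 (log2, SE; limma adjusted p = 0.384 and 0.487).

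**Figure D5:**
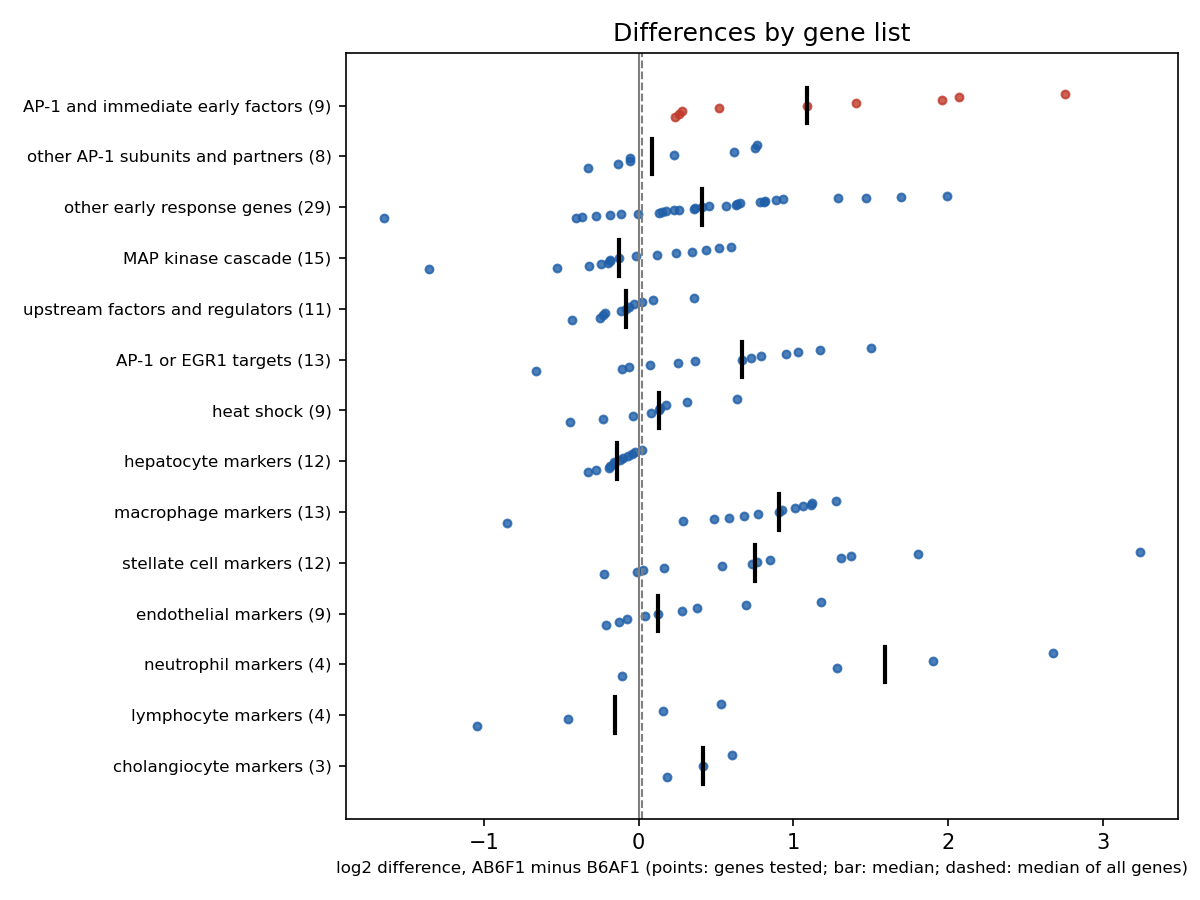
Log2 difference (AB6F1 minus B6AF1, x axis) of the genes tested in each list (points, number tested in brackets), with the list's median as a black bar and the median of all genes, 0.02, as a dashed line. The median was 1.09 for the immediate early factors, 0.41 for other early response genes, -0.13 for the MAP kinase cascade and -0.08 for upstream factors.

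Whole liver holds hepatocytes, macrophages, stellate, endothelial and blood cells, and markers of each were read on the same arrays. Limma called 2 stellate markers and 0 of the other cell types' markers. In whole tissue a change in the number of cells of a type and a change in RNA per cell cannot be told apart. Albumin (Alb) marked the tissue as liver on every array, at 38514.3 to 48624.7. Of 13 macrophage markers tested, 12 were higher (median log2 difference 0.91); their signals summed to 20050 and 12347 on the AB6F1 arrays, against 8023 and 10874 on the B6AF1 arrays. Lyz2 was at 1.28 ± 0.26, Lgals3 at 1.11 ± 0.27 and C1qb at 1.12 ± 0.27 (log2, SE; limma adjusted p = 0.200, 0.278 and 0.278). The scavenger receptor Cd163 was the exception, at -0.85 ± 0.22 (limma adjusted p = 0.299) with arrays that did not overlap. At an unadjusted limma p under 0.05, 9 macrophage markers were higher and 1 was lower, where 5.84% of all genes were higher. At that threshold 7 stellate, 2 endothelial and 2 neutrophil markers were higher, and 1 hepatocyte marker was lower. Of 12 stellate cell markers 10 were higher, with a median of 0.75 and summed signals of 16605 and 20379 against 13344 and 12868; Col3a1 and Col1a2 rose (limma adjusted p = 0.00931 and 0.0402), and both calls were lost without either B6AF1 replicate and on the mean of all probe sets, where Col1a2 was at a log2 difference of 0.033. Of 8 neutrophil markers listed, 4 were tested and 3 of these were higher, with summed signals of 1293 and 496 against 405 and 200. S100a8 was at 2.68 ± 0.86 (log2, SE, with a limma adjusted p of 0.408). In B6AF1, signals were 76.8 and 23 for S100a8 and 69.8 and 40.6 for S100a9. Both genes passed the filter of 60.9 only through their AB6F1 arrays, so their direction is partly fixed by the filter. The same holds for the stellate marker Col1a1, among the 10 higher. Its B6AF1 signals were 96.6 and 16.7, with a geometric mean below the filter. Endothelial markers (9 tested, 6 higher) had a median of 0.13, lymphocyte markers (4 tested, 2 higher) -0.15 and cholangiocyte markers (3 tested, 3 higher) 0.42. The lower lymphocyte markers were Cd8a (68.5 and 26.7 in AB6F1) and Cd79a (74.2 and 46.7 in AB6F1). They passed the filter only through their B6AF1 arrays, so their direction, too, is partly fixed by it. Of 12 hepatocyte markers tested 11 were lower, with a median of -0.14 and summed signals of 442535 and 402030 against 434305 and 498061. None of the markers tested was at 0 on any array, as log2 values with nothing added require, so this does not show detection. The macrophage, neutrophil and lymphocyte sums were highest in AB6F1 replicate 1, as were the brightest probe sets of Fosl2, Junb, Egr1 and Ier2. The stellate and cholangiocyte sums were highest in AB6F1 replicate 2, as were the brightest probe sets of Fos, Fosb, Jun, Jund, Atf3 and Klf6. The endothelial and hepatocyte sums were highest in B6AF1 replicate 2. The macrophage, endothelial and cholangiocyte sums were lowest in B6AF1 replicate 1, which was also the lowest array for 7 of the 10 factors. By contrast, the stellate and neutrophil sums were lowest in B6AF1 replicate 2, at 12868 and 200. The lymphocyte and hepatocyte sums were lowest in AB6F1 replicate 2. The dimmer probe sets of Jun and Jund were highest in AB6F1 replicate 1, unlike their brightest ones. The part of these cells in the differences of the early factors was not tested.

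Source numbers in the labels run in separate blocks for the crosses, so cross and any difference in collection cannot be told apart. Each array was scaled to a trimmed mean signal of 500, and median signals ran from 67.2 to 78.0. The replicates are labelled as biological, and litters and collection days are not given in the labels used here.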

How the data were processed

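The arrays were hybridised with biotin-labelled cRNA from Trizol-extracted total RNA, per the labels' protocols. The deposited intensity is a linear signal, and MAS5 is named without a version in the submitters' processing notes. The values show a common scale, a 2%-trimmed mean of 500 on each array, which would hide a change common to the whole transcriptome. No detection calls entered the work.

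Of the probe sets, 34945 carried 1 symbol, 932 carried several and 9160 carried none, beside 64 controls. Symbols were updated for 34754 probe sets through gene identifiers in RefSeq's GRCm38.p6 table. This named 18193 genes. The 11748 above the brightness filter were tested as log2 values, nothing being added. The tool was limma 3.58.1 under R 4.3.3 (lmFit, then eBayes with an intensity trend, two-sided, Benjamini-Hochberg, threshold 0.05). Residual degrees of freedom were 2 and prior ones 4.96. SE and 95% intervals are limma's, means ± SD are of signals, and folds are powers of the log2 difference. The fit was tested on simulated data. The members and the lists were chosen with earlier results of these data known. The text names every member, list genes past the threshold, Alb and, in each list it describes, at most the 4 with the smallest p. Nr4a3, Ier3 and Klf4, outside this rule, were named after their values were seen. Alternatives changed the scaling, filter, choice of probe set, variance model and block, and left out each array. Genes of the lists without a named probe set, and those below the filter, are not analysed here. No set test was run.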

Additional observations from a re-analysis of the deposited data

How the results depend on the processing

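The 10 genes were recomputed 155 times in all, under other normalizations, filters, probe sets and variance settings, with the replicate number as a block and without each array. The sign held in 154 of these, but many could not change it: filters, variance settings and the block left each log2 difference as reported. The exception was the brightest Fosl2 probe set, whose log2 difference ran from -0.031 to 0.50 with an array left out (-0.031 without AB6F1 replicate 1). Among the pathway genes named, the mean of all probe sets turned Map3k1 from 0.60 to -0.59 and Creb1 from -0.25 to 0.040; none of these passed limma, and the cause was not tested. No member was called in the reported fit; of the recomputed values 4 passed limma, 3 for Fos and 1 for Jun. The Jun call came with the replicate block (limma adjusted p = 0.0157). Arrays of the same number did not deviate together (correlation across genes -0.027), so the numbers are not taken to pair the mice, and the cause of these gains was not tested.

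Over all genes the 25 calls became 50 after median centring, 62 with the replicate block, 46 at a threshold of 0.1, and 0 without the intensity trend (1044 at an unadjusted p under 0.05). They ran from 1 to 241 with an array left out. Among probe sets tested separately, the 36 calls became 63 after median centring, 155 with the replicate block and 0 without the trend (1835 at an unadjusted p under 0.05), and ran from 1 to 380 with an array left out. Precision was limited by the 4 arrays, and by signals near or below the filter for Fosb and, in B6AF1, for Fos, Atf3 and the dimmer Fosl2 probe set.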
